A study of Homo sapiens with 24 samples.

Results

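The 37 genes described here form the ATF4 and amino acid response set: the transcription factor ATF4, stress regulators linked to it, enzymes that make serine and other amino acids, amino acid transporters and cytosolic tRNA synthetases. They were listed by name, with earlier results of these data known, so their counts beside those of all genes are a description. A gene counted as measured when a probe set of the array carried its symbol alone. Of 25029 genes measured in this way 36 belong to the set, and all 36 were among the 17329 genes tested. The remaining one, MARS, the methionyl-tRNA synthetase, has only probe sets that carry a second symbol and is given apart. The 36 genes comprise 10 stress regulators, 5 enzymes of the serine route, 5 other synthesis enzymes, 7 transporters and 9 tRNA synthetases.

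The study hybridised RNA of 24 samples, 3 in each of 8 groups, to Affymetrix Human Gene 2.1 ST arrays. Both cell lines, HEK293 (from human embryonic kidney) and BJ-hTERT (foreskin fibroblasts kept dividing by telomerase), carry a construct, switched on by doxycycline, for the fusion of YWHAE to NUTM2 with an HA tag. The groups are HEK293 mock 24 h, HEK293 doxycycline 24 h, HEK293 mock 72 h, HEK293 doxycycline 72 h, and the same 4 for BJ-hTERT. Mock cells received water in place of doxycycline, and the doxycycline dose in the medium is not given in the sources used here. Because every group carries the fusion construct, and no doxycycline-treated cells without it were analysed here, an effect of the fusion and an effect of the drug cannot be told apart. Each line stands for 1 cell type, and whether it is a single clone is not given in the sources used here. The labels do not say that the 3 arrays of a group came from separate cultures, so a p-value here reflects array-to-array spread that may be technical, and 3 arrays a group limit the precision of every value.

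ATF4 is the effector of the integrated stress response. When amino acids run short or the endoplasmic reticulum is stressed, kinases phosphorylate the initiation factor eIF2 alpha, general translation slows and the ATF4 messenger is translated more, so ATF4 activity can change while its own RNA does not. ATF4 then binds composite C/EBP-ATF elements and raises genes that import, make and charge amino acids, together with regulators such as CHAC1, TRIB3 and SESN2 that tune the response.

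Values are log2 intensities, a difference of 1 being a doubling, and values after ± are standard errors from the limma fit. A gene was called when its limma p, adjusted by Benjamini-Hochberg over all 17329 genes, was under 0.05, and "rose" or "fell" is used only of called genes. NUTM2B, whose probe sets read the fusion partner, rose with doxycycline in all 4 settings, by 2.16 and 2.33 in HEK293 and by 1.9 and 1.95 in BJ-hTERT at 24 and 72 h, with adjusted p from 7.8e-05 to 0.00037. The other NUTM2 entries were less uniform. NUTM2A rose only in BJ-hTERT, at both times, and NUTM2G only at 72 h, in both lines. NUTM2D fell in BJ-hTERT at 24 h (-0.799, limma adjusted p = 0.031), and NUTM2A-AS1 was not called. Fibroblast markers averaged 7.73 to 8.38 over the 12 BJ-hTERT arrays and 3.33 to 3.54 over the 12 HEK293 arrays, and 11 of 12 were higher in mock BJ-hTERT cells, POSTN being the exception. Epithelial and embryonic kidney markers averaged 6.28 to 6.58 in HEK293 and 3.43 to 3.84 in BJ-hTERT. These are whole-culture values, in which fewer cells of one state and less RNA per cell cannot be told apart.

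RefSeq promoter windows (build GRCh38.p14, from 250 bases before to 50 after the gene start) were given for 32 of the 37 members, and not for PSPH, SHMT2, PYCR1, SLC7A11 and YARS. A core of the C/EBP-ATF element, TGATGNAA or its reverse complement TTNCATCA, was found in a window of 13 of the 32 members (40.6%), against 1217 of the 27305 genes with a window (4.46%). Counted by window, since 15 of the members had more than 1, it was in 13 of 52 member windows (25%), against 1270 of all 35116 (3.62%). The 13 comprise 6 of 9 tRNA synthetases with a window, 4 of 6 transporters (SLC7A1, SLC3A2, SLC1A4 and SLC1A5), 2 of 10 stress regulators, 1 of 4 other synthesis enzymes and 0 of 3 serine-route enzymes. A match is a description of letters and not a shown binding site. The members were listed as genes of the ATF4 response, so a share above that of all genes may follow from the choice and is no test. Stretches were taken only where the match lay wholly before the gene start, and a selection of them is given below. SLC1A5 also has such a match (-97 to -90) and is not shown. The matches of SLC7A1, SLC3A2, SLC1A4, CARS, MARS and NARS span or follow the start. Capitals mark the 8 matched bases, and each stretch runs 5′ to 3′ on the strand of its gene. Coordinates in brackets are those of the whole printed stretch. The stretches of GARS and IARS are cut at the gene start. The CHAC1 match lies at -209 to -202 from the gene start (chr15:40953232-40953299, plus strand), that of CEBPG at -42 to -35 (chr19:33374041-33374108, plus strand) and that of ASNS at -68 to -61 (chr7:97872439-97872506, minus strand). The AARS match lies at -187 to -180 (chr16:70289656-70289723, minus strand), that of GARS at -33 to -26 (chr7:30594815-30594877, plus strand) and that of IARS at -13 to -6 (chr9:92293698-92293740, minus strand).
CHAC1: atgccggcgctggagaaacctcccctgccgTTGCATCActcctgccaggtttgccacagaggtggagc
CEBPG: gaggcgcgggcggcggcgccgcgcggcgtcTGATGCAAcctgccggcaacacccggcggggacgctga
ASNS: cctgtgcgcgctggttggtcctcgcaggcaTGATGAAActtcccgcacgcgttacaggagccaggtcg
AARS: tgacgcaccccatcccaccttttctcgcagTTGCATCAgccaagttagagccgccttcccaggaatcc
GARS: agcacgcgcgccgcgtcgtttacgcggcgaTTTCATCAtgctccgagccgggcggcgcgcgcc
IARS: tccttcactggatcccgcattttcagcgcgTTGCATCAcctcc

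Part of the set was lower with doxycycline in BJ-hTERT cells. At 24 h in that line 8 of the 36 members fell and 2 rose, while 4.39% of all genes tested fell and 4.47% rose (8.85% called in either direction). The 8 that fell were the transporters SLC7A11 and SLC7A1, the serine-route enzymes PSAT1, PHGDH and MTHFD2, and the regulators CHAC1, CEBPG and SESN2; VLDLR and CTH rose. Values of 31 of 36 members lay below 0, against 46.4% of all genes tested, with a median of -0.27 against 0.02. The 3 doxycycline arrays lay entirely below the 3 mock arrays for 14 members and entirely above for 2, against 11.3% and 14.4% of all genes. At 72 h 5 members fell and 3 rose, while 4.59% of all genes fell and 4.03% rose (8.62% called in either direction), and the median was -0.06 against -0.01. The 3 doxycycline arrays then lay below the mock arrays for 6 members and above for 3, against 12.9% and 12.2% of all genes. SLC7A11, SLC7A1, PSAT1 and PHGDH were called as falls at both times, VLDLR and CTH as rises at both times, SLC38A2 as a fall at 72 h and SLC7A5 as a rise at 72 h.

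With each of the 6 arrays of a comparison left out in turn, the 24 h calls of SLC7A11, SLC7A1, PSAT1, MTHFD2 and VLDLR held 6 times, that of CHAC1 4 times, those of CTH and SESN2 2 times and those of CEBPG and PHGDH 1 time, with adjusted p up to 0.14. At 72 h the calls of VLDLR and CTH held 6 times, SLC38A2 5, PHGDH 4, SLC7A1 and SLC7A5 3, PSAT1 2 and SLC7A11 1, with adjusted p up to 0.21. When the spread was estimated from the 12 arrays of the line alone, 6 members were called at 24 h and 3 at 72 h, and from the 6 arrays compared 1 and 2. Of all 17329 genes, 1165 and 1137 were called in the fits of 12 arrays, and 697 and 551 in those of 6. The share of members called was thus below that of all genes in the fit of 6 arrays at 24 h. It stayed above that of all genes in the other fits, on small counts.

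In HEK293 cells no member was called at either time. There 0.473% of all genes were called at 24 h (0.456% as rises and 0.0173% as falls) and 1.21% at 72 h (0.952% as rises and 0.26% as falls). The members' medians were 0.06 at 24 h, against 0.01 for all genes, and 0.12 at 72 h, against 0.00. At an unadjusted p under 0.05, 4 members were past the threshold at 24 h, all with positive values (8.56% of all genes), and 9 at 72 h, 7 of them positive (11.6% of all genes). The 3 doxycycline arrays were apart from the mock arrays for 6 members at 24 h, all above (8.47% of all genes lay above and 5.49% below), and for 14 at 72 h, with 9 above (9.15% of all genes) and 5 below (8.48%). The smallest adjusted p at 24 h belonged to GARS, the glycyl-tRNA synthetase (0.48 ± 0.14, limma adjusted p = 0.19), and at 72 h to the glutamine transporter SLC1A5 (0.42 ± 0.12, adjusted p = 0.11).

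**Figure D1:**
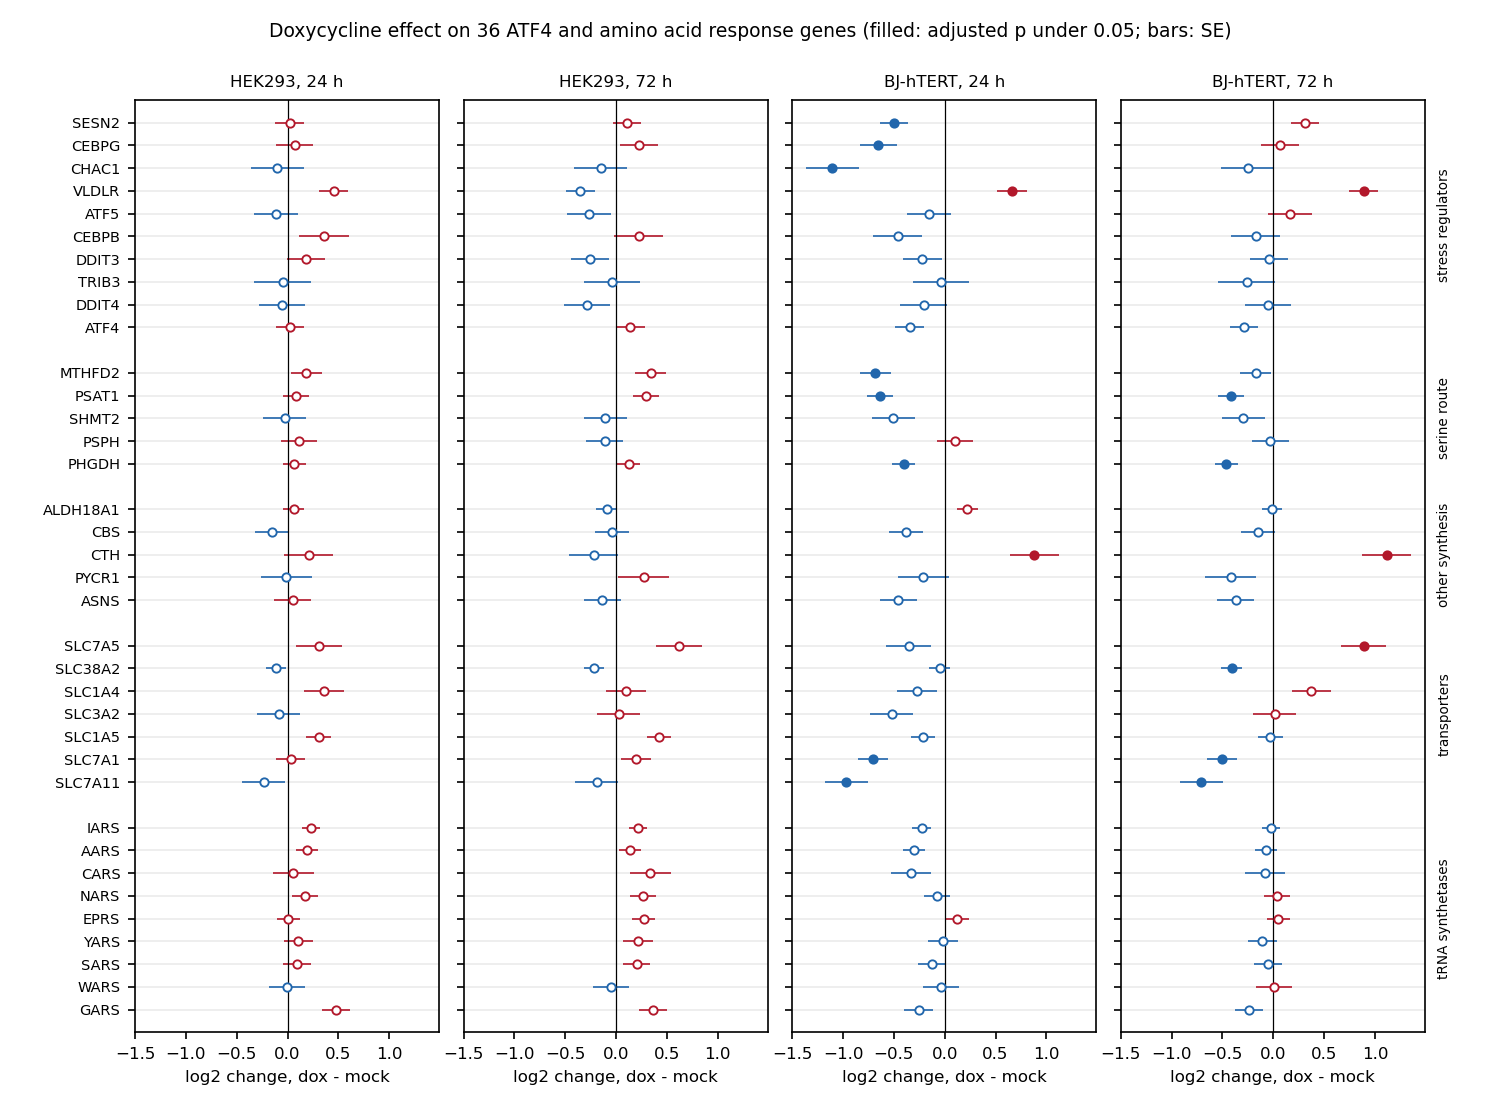
Log2 change with doxycycline against mock for the 36 members in each line and time, grouped by role; points are limma estimates, bars are SE, n = 3 arrays a group, and filled points have adjusted p under 0.05. The filled points lie in the BJ-hTERT panels, 10 at 24 h and 8 at 72 h, and 0 in the HEK293 panels.

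Between 24 and 72 h in mock cells, with no doxycycline, 3 members fell in BJ-hTERT (SLC7A11, SESN2 and PSAT1) and 2 rose (SLC38A2 and ALDH18A1), while 0.692% of all genes fell and 1.16% rose (1.85% in either direction). Values of 29 of 36 members were below 0, with a median of -0.23 against 0.01 for all genes. The 72 h arrays lay below all 24 h arrays for 15 members and above for 2, against 9.1% and 10.3% of all genes. In HEK293 only VLDLR was called, as a rise, while 0.271% of all genes rose and 0.0981% fell (0.369% in either direction), and 28 of 36 members had values above 0, with a median of 0.21 against 0.00. The 72 h arrays there lay above all 24 h arrays for 12 members and below for 4, against 9.08% and 7.93% of all genes. The BJ-hTERT mock arrays at 24 h enter both the doxycycline comparison at 24 h and the change over time in that line, so both sets of values rest in part on the same 3 arrays. With single arrays left out the BJ-hTERT calls of SESN2 and PSAT1 held 6 times of 6, that of SLC7A11 5 times and those of SLC38A2 and ALDH18A1 1 time, and that of VLDLR in HEK293 held 1 time. From the 12 arrays of a line alone, 0 members were called in either line, with 78 of all genes called in BJ-hTERT and 2 in HEK293. In the limma fit of all arrays, 16 members had an unadjusted p under 0.05 in BJ-hTERT, against 14.5% of all genes. In HEK293 there were 10, against 12.5%.

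**Figure D2:**
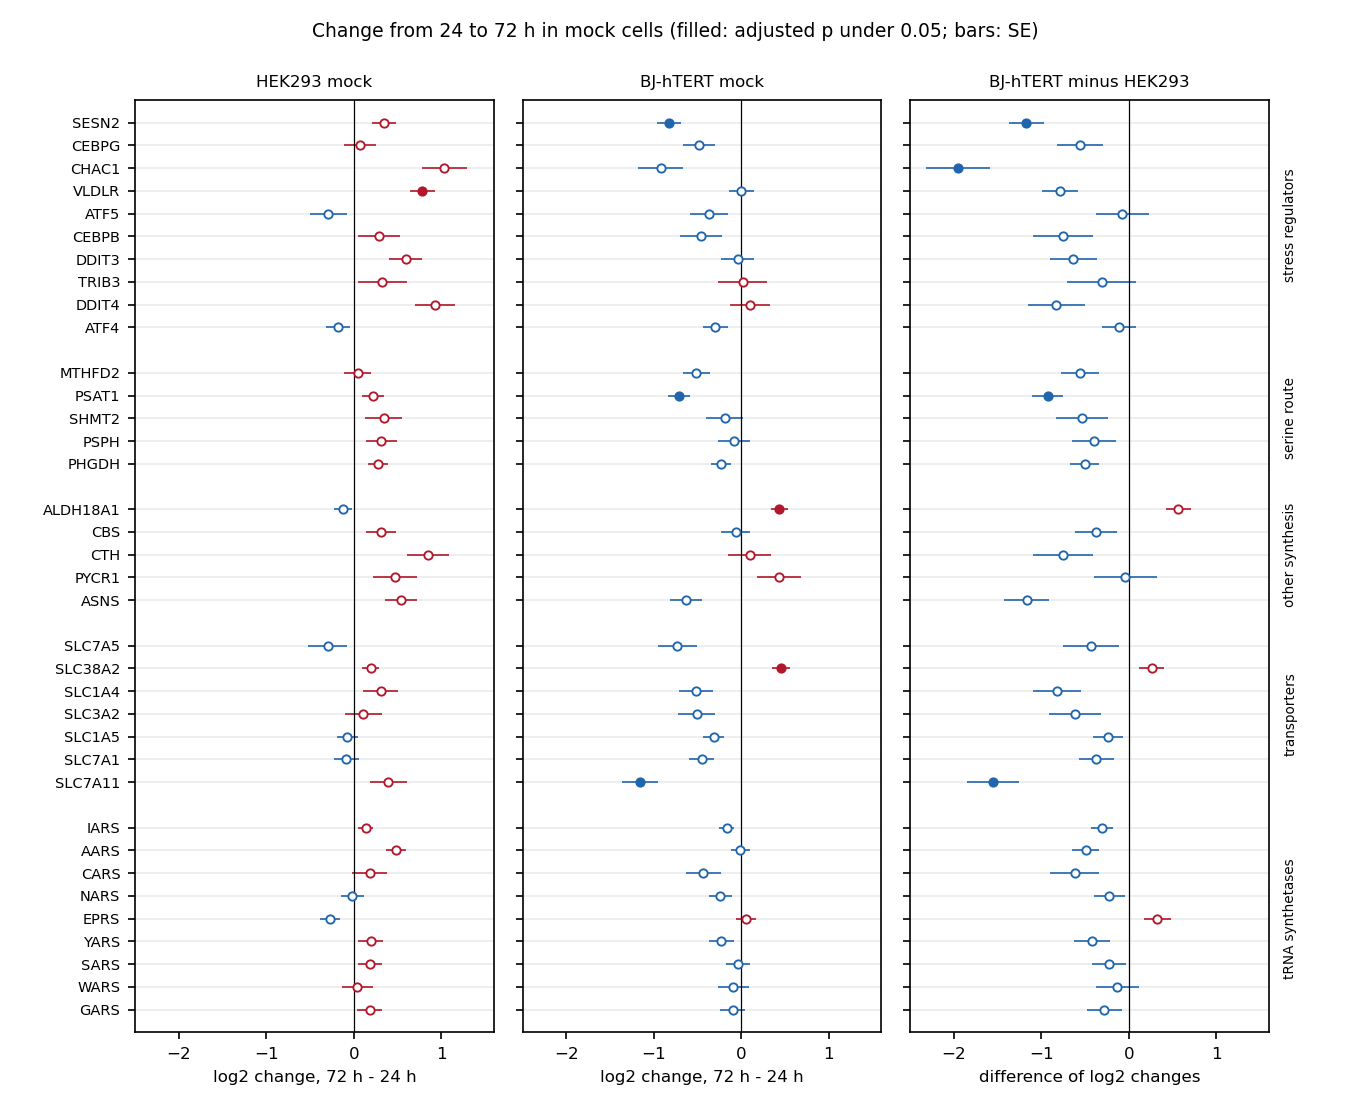
Log2 change from 24 to 72 h in mock cells of HEK293 and BJ-hTERT, and the difference between the lines, for the 36 members by role; points are limma estimates, bars are SE, n = 3 arrays a group, and filled points have adjusted p under 0.05. Most open and filled points lie right of 0 for HEK293 (28 of 36) and left of 0 for BJ-hTERT (29 of 36), and 33 of 36 differences are below 0.

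Among the transporters, SLC7A11, the cystine and glutamate exchanger that feeds glutathione synthesis, read 10.35, 10.4 and 9.5 in the BJ-hTERT mock arrays at 24 h and 9.24, 9.27 and 8.83 in the doxycycline arrays. At 72 h it read 8.99, 8.83 and 8.95 in mock and 8.51, 8.17 and 7.98 in doxycycline arrays. Every 24 h mock array was thus above every other BJ-hTERT array, the lowest of the 3 by the least, and the groups within each time did not overlap. SLC7A11 fell by 0.97 ± 0.21 on the log2 scale with doxycycline at 24 h (limma adjusted p = 0.0045) and by 0.71 ± 0.21 at 72 h (adjusted p = 0.04). It fell by 1.16 ± 0.21 over time in mock cells (adjusted p = 0.0071). All 14 of its probe sets were lower in each of these 3 comparisons. In HEK293 it ranged from 6.00 to 6.85 over the 12 arrays and was not called.

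SLC7A1, which carries arginine and lysine, read 8.72, 8.64 and 8.55 in BJ-hTERT mock arrays at 24 h and 7.89, 8.04 and 7.87 with doxycycline, a fall of 0.70 ± 0.14 (adjusted p = 0.0026). At 72 h the mock arrays read 8.37, 8.11 and 8.06 and the doxycycline arrays 7.83, 7.9 and 7.3, a fall of 0.51 ± 0.14 (adjusted p = 0.031). The groups did not overlap at either time. SLC7A5, the large neutral amino acid transporter that takes up leucine, gave values of opposite sign at the 2 times. Its doxycycline arrays read 10.56, 10.51 and 9.76 at 24 h against 10.83, 10.87 and 10.2 in mock cells, an overlap with a difference of -0.35 ± 0.22 (adjusted p = 0.4). At 72 h they read 11.04, 11.09 and 10.24 against 10.01, 9.96 and 9.74, with no overlap, a rise of 0.89 ± 0.22 (adjusted p = 0.014). All 9 of its probe sets were lower with doxycycline at 24 h and all 9 higher at 72 h, and the difference between the times was 1.24 ± 0.32 and not called (adjusted p = 0.2). In HEK293 the same comparison at 72 h gave 0.62 ± 0.22 (adjusted p = 0.25), the doxycycline arrays (8.75, 9.06 and 8.94) lying above the mock arrays (8.13, 8.4 and 8.37).

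SLC38A2, a sodium-coupled transporter of small neutral amino acids, read 10.47, 10.48 and 10.36 in BJ-hTERT mock arrays at 72 h. These were above its 24 h mock arrays, at 10.02, 9.94 and 10.01, and above its doxycycline arrays at 72 h, at 10.08, 10.14 and 9.86. It rose by 0.45 ± 0.10 over time in mock cells (adjusted p = 0.024) and fell by 0.41 ± 0.10 with doxycycline at 72 h (adjusted p = 0.012), and all 22 probe sets followed the gene in both. The 2 comparisons share the 72 h mock arrays. SLC3A2, the heavy chain that partners SLC7A5 and SLC7A11, was not called (-0.52 ± 0.21 with doxycycline at 24 h in BJ-hTERT, adjusted p = 0.14), and its arrays overlapped. SLC1A5, the glutamine transporter, and SLC1A4, a neutral amino acid transporter, were called in no doxycycline or time comparison. SLC1A5 in HEK293 read 8.7, 8.99 and 8.93 with doxycycline at 72 h against 8.55, 8.34 and 8.46 in mock cells, with no overlap.

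**Figure D3:**
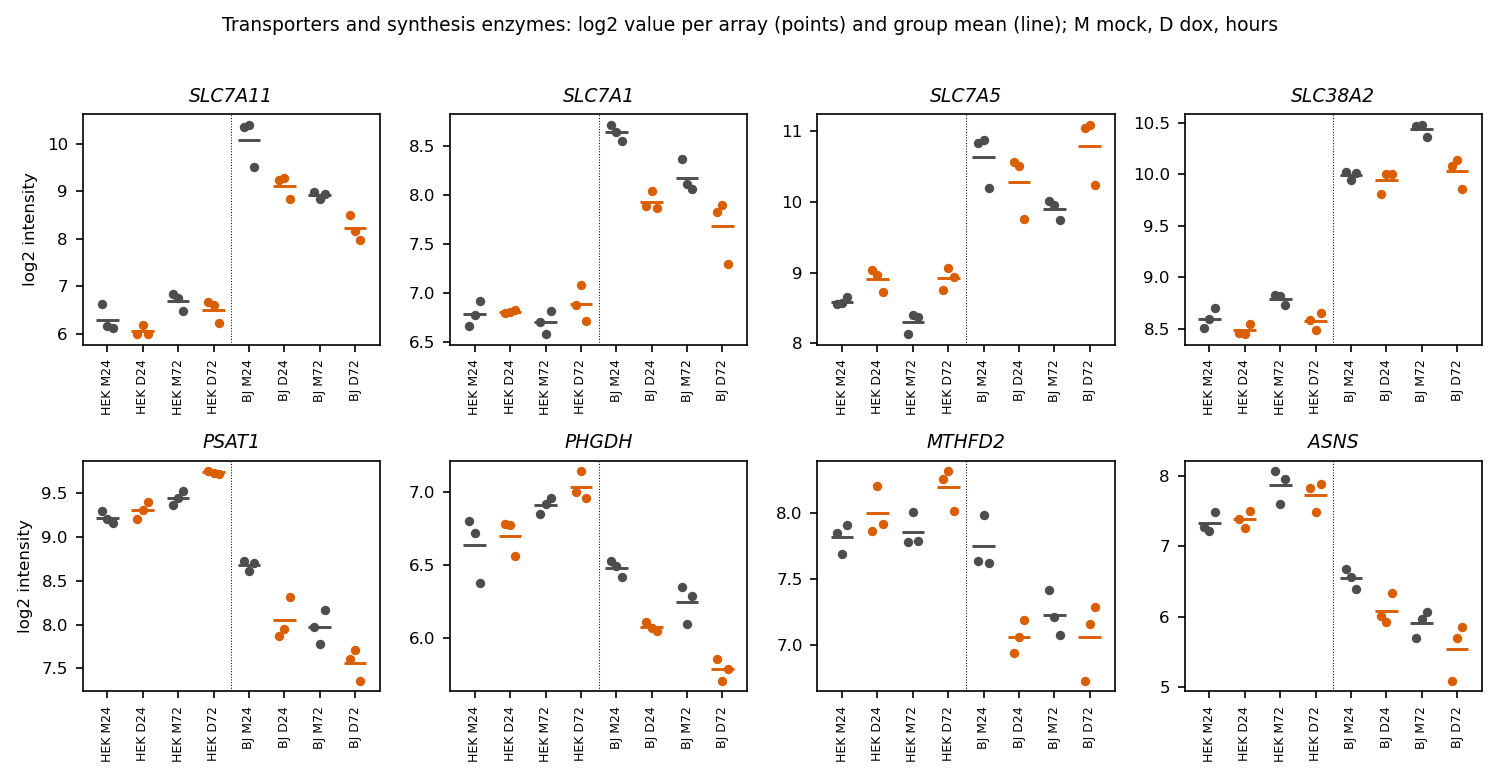
Log2 value of each array (points) and group mean (line) for 4 transporters and 4 synthesis enzymes in the 8 groups; grey is mock, orange is doxycycline, and HEK293 stands left of the dotted line. SLC7A11 is highest in the 3 BJ-hTERT mock arrays at 24 h (9.5 to 10.4), and SLC7A5 at 72 h is higher with doxycycline in both lines.

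In the serine route, PSAT1, the second enzyme of serine synthesis, read 8.73, 8.61 and 8.7 in BJ-hTERT mock arrays at 24 h and 7.87, 7.95 and 8.31 with doxycycline. At 72 h it read 7.97, 7.78 and 8.17 in mock and 7.61, 7.71 and 7.36 with doxycycline. The groups did not overlap within either time, and the 24 h mock arrays were above all others of the line. PSAT1 fell by 0.64 ± 0.13 with doxycycline at 24 h (adjusted p = 0.0022), by 0.41 ± 0.13 at 72 h (adjusted p = 0.047), and by 0.71 ± 0.13 over time in mock cells (adjusted p = 0.0064). In HEK293 its doxycycline arrays at 72 h (9.75, 9.73 and 9.72) lay above the mock arrays (9.36, 9.44 and 9.52), a difference of 0.29 ± 0.13 that was not called (adjusted p = 0.36).

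PHGDH, the first and committing enzyme of serine synthesis, read 6.53, 6.49 and 6.42 in BJ-hTERT mock arrays at 24 h and 6.11, 6.07 and 6.05 with doxycycline. It fell by 0.40 ± 0.11 at 24 h (adjusted p = 0.03) and by 0.46 ± 0.11 at 72 h (adjusted p = 0.012), with no overlap at either time. The call at 24 h was kept in 9 of 17 alternatives (limma adjusted p up to 0.72), and that at 72 h in 13 of 17 (up to 0.24). MTHFD2, the mitochondrial folate enzyme that takes up the one-carbon unit from serine, read 7.64, 7.99 and 7.62 in mock arrays at 24 h and 6.94, 7.06 and 7.19 with doxycycline. It fell by 0.68 ± 0.15 (adjusted p = 0.0057) and was not called at 72 h (-0.17 ± 0.15, adjusted p = 0.58), where its groups overlapped. SHMT2, the mitochondrial enzyme that splits serine to glycine, gave -0.51 ± 0.21 at 24 h and was not called (adjusted p = 0.16). PSPH, which performs the last step of serine synthesis, gave 0.10 ± 0.18 at 24 h and -0.03 ± 0.18 at 72 h. Of the 5 enzymes of the route 3 fell at 24 h and 2 at 72 h.

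Among the other synthesis enzymes, CTH, which makes cysteine from cystathionine, was higher with doxycycline while most of the set was lower. It read 4.24, 4.65 and 3.67 in BJ-hTERT mock arrays at 24 h and 5.2, 5.19 and 4.82 with doxycycline, and at 72 h 4.17, 3.97 and 4.7 against 5.59, 5.08 and 5.52. The groups did not overlap at either time. CTH rose by 0.88 ± 0.24 at 24 h (adjusted p = 0.024) and by 1.12 ± 0.24 at 72 h (adjusted p = 0.0046). The limma call at 24 h was lost when the median of its 13 probe sets, taken array by array, was used (0.248, adjusted p = 0.76). The median of the changes of the single probe sets at 24 h was 0.481. The call at 72 h was kept in all 17 alternatives tried. In HEK293 mock cells CTH read 4.79, 5.1 and 4.89 at 24 h and 5.71, 5.49 and 6.12 at 72 h, a difference of 0.84 ± 0.24 that was not called (adjusted p = 0.12).

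ASNS, asparagine synthetase and a standard readout of ATF4 activity, read 6.68, 6.56 and 6.39 in BJ-hTERT mock arrays at 24 h. It read 6.01, 5.92 and 6.33 with doxycycline, and 5.7, 5.97 and 6.07 in mock arrays at 72 h. Both of these groups lay below the 24 h mock arrays, and neither difference was called (-0.46 ± 0.18 with doxycycline, adjusted p = 0.14, and -0.63 ± 0.18 over time, adjusted p = 0.086). With the median of its 13 probe sets, taken array by array, in place of the mean both were called in the limma fit. They were then at -1.18 with adjusted p = 0.00065 and at -1.18 with adjusted p = 0.008. The median of the changes of the single probe sets was smaller in size, at -0.56 with doxycycline (10 of 13 lower) and -0.541 over time (11 of 13 lower). In HEK293 mock cells ASNS read 7.27, 7.22 and 7.48 at 24 h and 8.06, 7.59 and 7.95 at 72 h, with no overlap and a difference of 0.54 ± 0.18 (adjusted p = 0.2). ALDH18A1, the first enzyme of proline synthesis from glutamate, rose by 0.43 ± 0.10 over time in BJ-hTERT mock cells (adjusted p = 0.029), and all 23 of its probe sets were higher. PYCR1, the last enzyme of that route, and CBS, which makes cystathionine, were called in no doxycycline or time comparison.

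Of the stress regulators, ATF4 itself was called in none of the 12 comparisons. In BJ-hTERT its RNA read 7.86, 8 and 7.81 in mock and 7.57, 7.62 and 7.46 in doxycycline arrays at 24 h. The groups did not overlap, and the difference of -0.35 ± 0.14 (95% interval -0.63 to -0.06) had an adjusted p of 0.14. At 72 h the difference was -0.29 ± 0.14 (adjusted p = 0.23). In HEK293 the differences were 0.03 ± 0.14 and 0.14 ± 0.14.

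CHAC1, which degrades glutathione, read 6.2, 6.85 and 5.43 in BJ-hTERT mock arrays at 24 h and 5.15, 5.32 and 4.69 with doxycycline. It fell by 1.11 ± 0.26 (adjusted p = 0.0082), and all 8 probe sets were lower. The mock arrays were spread over more than 1 log2 unit, and the call was lost without the second mock array (-0.759, adjusted p = 0.065) or the third doxycycline array (-0.926, adjusted p = 0.055). At 72 h the doxycycline arrays (4.88, 5.23 and 4.85) overlapped the mock arrays (5.25, 5.38 and 5.08), with a difference of -0.25 ± 0.26. In HEK293 mock cells CHAC1 read 4.99, 4.88 and 4.37 at 24 h and 5.58, 5.72 and 6.05 at 72 h, a difference of 1.03 ± 0.26 (adjusted p = 0.079) with all 8 probe sets higher.

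SESN2, a leucine sensor that restrains mTORC1, read 5.85, 6 and 5.54 in BJ-hTERT mock arrays at 24 h and 5.32, 5.44 and 5.12 with doxycycline, a fall of 0.50 ± 0.14 (adjusted p = 0.025). This call was kept in 10 of 17 alternatives (limma adjusted p up to 0.32). In mock cells at 72 h SESN2 read 4.86, 5.03 and 5.02, a fall of 0.83 ± 0.14 over time (adjusted p = 0.0037), with all 11 probe sets lower. Its doxycycline arrays at 72 h (5.01, 5.47 and 5.36) overlapped those mock arrays. CEBPG, a C/EBP partner of ATF4, read 5.85, 5.88 and 5.82 in mock arrays at 24 h and 4.98, 5.35 and 5.26 with doxycycline, a fall of 0.65 ± 0.18 (adjusted p = 0.029). CEBPB, another C/EBP factor, gave -0.46 ± 0.24 and was not called.

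VLDLR, a lipoprotein receptor whose gene is an ATF4 target, read 4.76, 5 and 5.13 in BJ-hTERT mock arrays at 24 h and 5.6, 5.32 and 5.95 with doxycycline. At 72 h it read 4.94, 5.07 and 4.88 against 5.72, 5.99 and 5.84. It rose by 0.66 ± 0.14 (adjusted p = 0.0047) and by 0.89 ± 0.14 (adjusted p = 0.00036), with no overlap at either time and 19 of 21 probe sets higher at each. In HEK293 mock cells it rose over time by 0.78 ± 0.14 (adjusted p = 0.022), from 5.9, 6 and 5.81 to 6.76, 6.74 and 6.56. With doxycycline in HEK293 it was 0.45 ± 0.14 at 24 h and -0.35 ± 0.14 at 72 h, neither called.

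The other 4 regulators were called in no doxycycline or time comparison. DDIT4, an inhibitor of mTORC1, read 6.32, 6.38 and 5.79 in HEK293 mock arrays at 24 h and 7.32, 6.74 and 7.22 at 72 h, with no overlap and a difference of 0.93 ± 0.23 (adjusted p = 0.077). DDIT3, the stress factor CHOP, was measured near the filter value of 2.83, with group means from 2.74 to 3.33, and its 8 probe sets disagreed. Over time in HEK293 mock cells its difference was 0.59 ± 0.19 and not called (adjusted p = 0.17), while the median change over its probe sets was 1.03, with 6 of 8 higher. TRIB3, a pseudokinase that feeds back on ATF4, ranged from 4.41 to 5.61 over group means, and ATF5, a related bZIP factor, from 4.62 to 5.77.

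**Figure D4:**
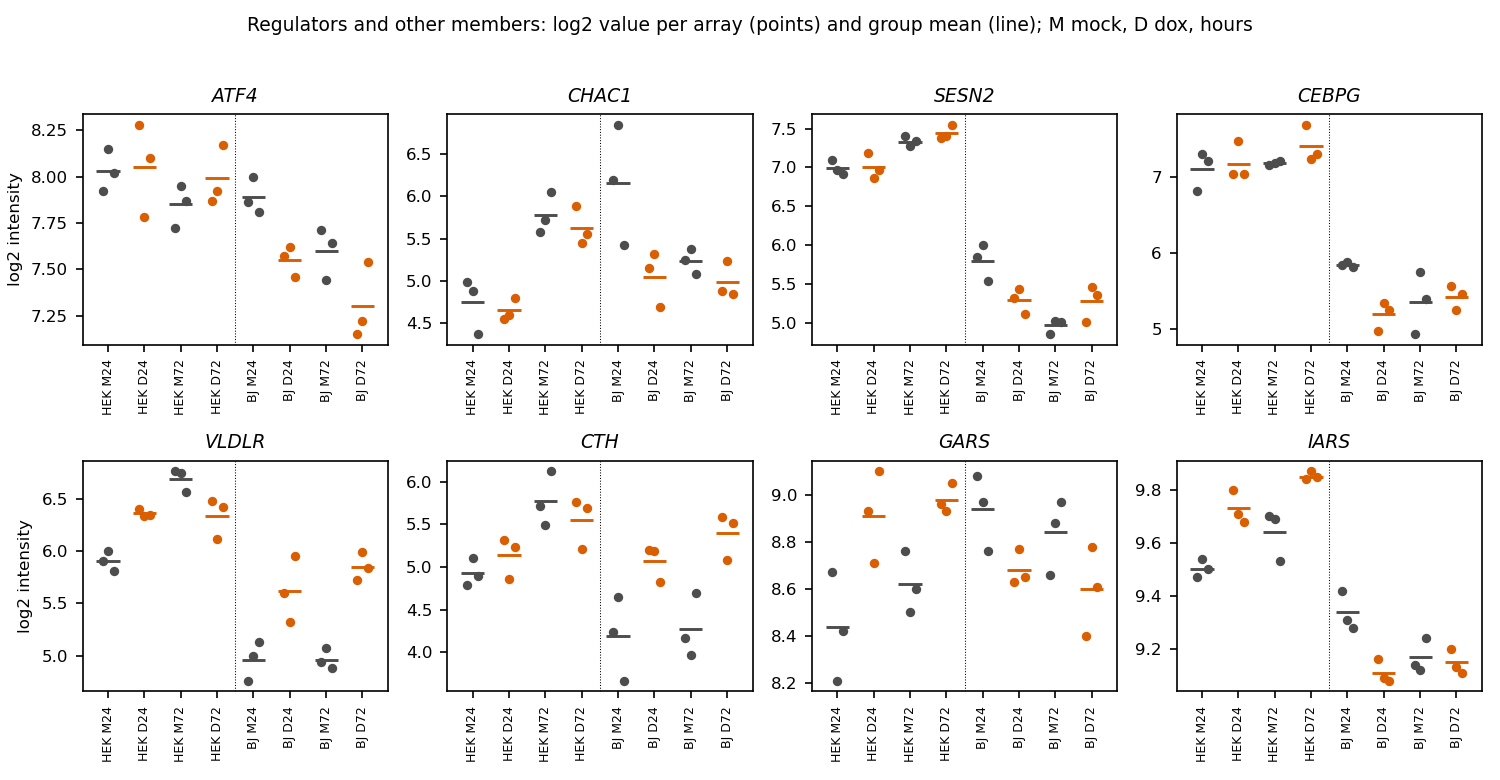
Log2 value of each array (points) and group mean (line) for ATF4, 5 other members of the regulator and synthesis groups and 2 tRNA synthetases in the 8 groups; grey is mock, orange is doxycycline, and HEK293 stands left of the dotted line. VLDLR and CTH are higher with doxycycline in BJ-hTERT at both times, while CHAC1 at 24 h is lower (4.69 to 5.32 against 5.43 to 6.85).

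The tRNA synthetases, which charge tRNAs with amino acids, had the smallest median span over the groups of the 5 roles. None of the 9 was called with doxycycline or over time in either line. The span between the lowest and highest of the 8 group means had a median of 0.543 over the 9 synthetases (from 0.376 for WARS to 1.23 for CARS), against 1.94 over the 7 transporters (from 0.596 to 4.02). This span takes in the difference between the lines, so it is no measure of doxycycline or time alone. For SLC7A11 it ran from HEK293 doxycycline at 24 h (6.07) to BJ-hTERT mock at 24 h (10.1). With doxycycline in HEK293 8 of 9 values were above 0 at each time, with medians of 0.11 and 0.22. In BJ-hTERT 8 of 9 were below 0 at 24 h, against 46.4% of all genes, and 6 of 9 at 72 h, with medians of -0.12 and -0.05. The all-gene medians of these doxycycline comparisons are those given above. Of 8 other cytosolic synthetases outside the set 8 were above 0 at 24 h and 6 at 72 h in HEK293, and 6 were below 0 at 24 h and 5 at 72 h in BJ-hTERT. IARS, the isoleucyl enzyme, read 9.47, 9.54 and 9.5 in HEK293 mock arrays at 24 h and 9.8, 9.71 and 9.68 with doxycycline. In BJ-hTERT it read 9.42, 9.31 and 9.28 against 9.16, 9.09 and 9.08. Neither pair overlapped, and the differences were 0.23 ± 0.09 (adjusted p = 0.42) and -0.23 ± 0.09 (adjusted p = 0.13). AARS, the alanyl enzyme, read 8.24, 8.28 and 7.98 in HEK293 mock arrays at 24 h and 8.75, 8.52 and 8.68 at 72 h, a difference of 0.48 ± 0.11 (adjusted p = 0.055). MARS, averaged from its 43 probe sets with a second symbol and added to the same fit after the data were seen, gave -0.36 ± 0.12 with doxycycline in BJ-hTERT at 24 h (adjusted p = 0.079) and was not called in any of the 12 comparisons. RefSeq now writes these symbols with a final 1 (AARS1, IARS1 and so on).

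Whether the doxycycline effect differed between the lines was tested as a difference of differences. At 24 h 5 members had a lower effect in BJ-hTERT than in HEK293 (3.17% of all genes called lower and 1.57% higher, 4.74% in all): MTHFD2 by -0.87 ± 0.22, SLC7A1 by -0.74 ± 0.20, GARS by -0.73 ± 0.20, PSAT1 by -0.72 ± 0.18 and IARS by -0.46 ± 0.13, with adjusted p from 0.022 to 0.042. At 72 h 3 had a lower effect and 2 a higher one (2.85% of all genes called lower and 2.42% higher, 5.27% in all). The lower ones were PSAT1 (-0.71 ± 0.18), SLC7A1 (-0.70 ± 0.20) and PHGDH (-0.59 ± 0.16), with adjusted p from 0.023 to 0.049. The higher ones were CTH (1.34 ± 0.34, adjusted p = 0.025) and VLDLR (1.24 ± 0.20, adjusted p = 0.0011). Of these 10 calls only that of VLDLR held without each of the 12 arrays left out in turn (1.13 to 1.31, adjusted p at most 0.0043). The effect at 72 h against 24 h was called for no member in either line, where 0.0173% of all genes were called in HEK293 and 0.00577% in BJ-hTERT; 1 member in HEK293 (6.57% of all genes) and 7 in BJ-hTERT (8.86%) had an unadjusted p under 0.05.

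The change over time in mock cells differed between the lines for 4 members, with 0.0866% of all genes called lower and 0.075% higher (0.162% in all). CHAC1 (-1.96 ± 0.37, adjusted p = 0.036), SLC7A11 (-1.55 ± 0.30, adjusted p = 0.039), SESN2 (-1.17 ± 0.20, adjusted p = 0.018) and PSAT1 (-0.93 ± 0.18, adjusted p = 0.039) all moved lower in BJ-hTERT than in HEK293. Values of 33 of 36 members were below 0, all 10 stress regulators and all 5 serine-route enzymes among them, with a median of -0.47 against 0.01 for all genes tested. ALDH18A1, SLC38A2 and EPRS were the 3 above 0. Each of the 4 calls was lost without at least 4 of the 12 arrays, as adjusted p reached 0.065 to 0.1.

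The lines also differed in level. In mock cells at 24 h 13 members were higher and 10 lower in BJ-hTERT than in HEK293, where 21.8% of all genes were higher and 28.9% lower (50.7% in all). The arrays of the lines were apart for 12 members in each direction, against 24.5% and 31.2% of all genes. All 7 transporters were higher in BJ-hTERT and 6 were called: SLC7A11 by 3.78 ± 0.21, SLC7A5 by 2.04 ± 0.22, SLC7A1 by 1.86 ± 0.14, SLC38A2 by 1.38 ± 0.10, SLC3A2 by 0.81 ± 0.21 and SLC1A5 by 0.52 ± 0.12. SLC7A11 read 6.63, 6.16 and 6.12 in HEK293 and 10.35, 10.4 and 9.5 in BJ-hTERT. Of the 5 other synthesis enzymes 4 were lower in BJ-hTERT, with CBS at -2.03 ± 0.17 and ALDH18A1 at -0.98 ± 0.10, and PYCR1 was higher by 1.16 ± 0.25. In the serine route only PSAT1 was called, at -0.54 ± 0.13. CEBPB was higher by 1.70 ± 0.24 and CHAC1 by 1.41 ± 0.26, while DDIT4 (-1.46 ± 0.23), CEBPG (-1.25 ± 0.18) and SESN2 (-1.19 ± 0.14) were lower. CARS, AARS and GARS were higher and EPRS lower. The ATF4 RNA differed by -0.14 ± 0.14 (adjusted p = 0.44). The difference of SLC3A2 was 1.78 with probe set medians taken array by array, and the median of its single probe set differences was 1.34. ATF5 was called at 0.59 ± 0.21, and this call was lost in 8 of 16 alternatives, down to 0.0369.

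**Figure D5:**
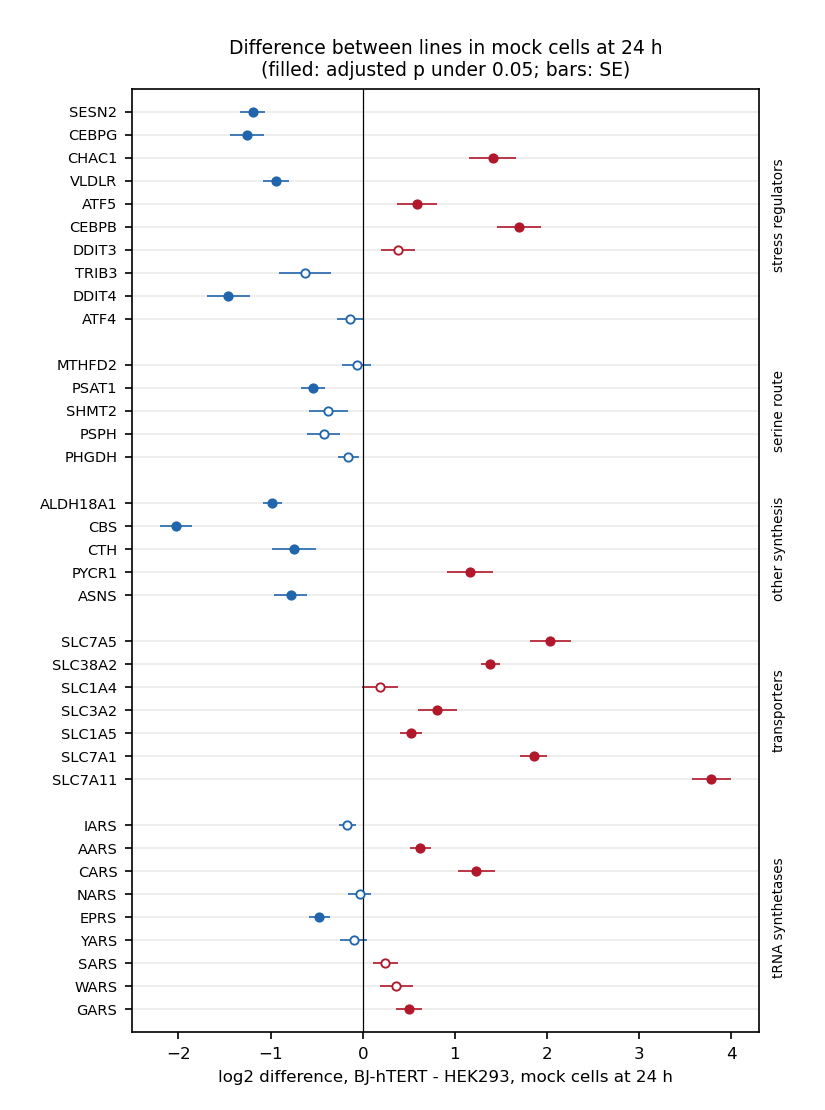
Log2 difference between mock BJ-hTERT and mock HEK293 cells at 24 h for the 36 members by role; points are limma estimates, bars are SE, n = 3 arrays a group, and filled points have adjusted p under 0.05. All 7 transporters lie right of 0, SLC7A11 furthest at 3.78, and CBS lies furthest left at -2.03.

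Related genes outside the set were counted from lists that, like the members, were chosen with earlier results of these data known. Of 17 other ATF4-linked genes tested 1 rose and 0 fell with doxycycline in BJ-hTERT at 24 h, and 1 rose and 2 fell at 72 h. Of all genes 4.47% rose and 4.39% fell there at 24 h, and 4.03% rose and 4.59% fell at 72 h. The riser of the list was ATF3, a stress-induced bZIP factor, at 1.69 ± 0.28 (adjusted p = 0.00032) and 1.75 ± 0.28 (adjusted p = 0.00029). Its arrays at 24 h read 2.52, 2.57 and 2.72 in mock and 4.9, 3.81 and 4.17 with doxycycline. These mock arrays lay below the filter value of 2.83, so low intensity limits the size of this rise. The list's fallers at 72 h were ALDH1L2, a mitochondrial folate enzyme (-0.70 ± 0.20), and SLC6A9, a glycine transporter (-0.55 ± 0.17). In HEK293 the list gave 0 calls at 24 h (0.473% of all genes called) and 1 rise at 72 h (0.952% of all genes rose).

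Of 15 genes of the XBP1 and ATF6 arms of the unfolded protein response, 2 rose in BJ-hTERT at 24 h, HSPA5 (0.43 ± 0.12), the chaperone BiP, and SEL1L (0.54 ± 0.13), and at 72 h DNAJC3 rose and CRELD2 fell. None of the 14 mitochondrial tRNA synthetases was called in the doxycycline and time comparisons, and of 8 other cytosolic ones FARSB fell at both times in BJ-hTERT (-0.39 ± 0.10 at each). Of 13 eIF2 kinases and factors EIF2B4 alone was called in the doxycycline and mock time comparisons, as a rise with doxycycline at 24 h in BJ-hTERT. Among 14 other transporters SLC1A1, which carries glutamate, and SLC7A6, which exchanges basic for neutral amino acids, rose at both times in BJ-hTERT. SLC6A6, the taurine transporter, fell with doxycycline at 72 h. Of 11 other folate genes TYMS and MTHFD1 fell at 24 h and TYMS and GART at 72 h. With doxycycline in BJ-hTERT 8.85% of all genes were called at 24 h and 8.62% at 72 h. None of these small lists was tested as a set.

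The G2 and mitosis genes were lower in the same BJ-hTERT comparisons. All 16 fell with doxycycline at 24 h (median -1.23) and 15 of 16 at 72 h (median -0.97), and 7 fell over time in mock cells (median -0.43), while none was called in HEK293. Of all genes 4.39%, 4.59% and 0.692% fell in these BJ-hTERT comparisons, in the same order. Their mean level was 8.75 to 8.92 in BJ-hTERT mock arrays at 24 h, 7.57 to 7.74 with doxycycline at 24 h, 8.37 to 8.53 in mock arrays at 72 h and 7.46 to 7.5 with doxycycline at 72 h. Fibroblast markers also moved over time in BJ-hTERT mock cells, where 5 of 12 rose with a median of 0.61 (1.16% of all genes rose). With doxycycline in BJ-hTERT at 72 h 4 of these 12 fell and 2 rose (median -0.17), against 4.59% and 4.03% of all genes. At 24 h none of the 12 was called (median 0.10), against 8.85% of all genes. The part of either list in the changes of the amino acid genes was not tested.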

How the data were processed

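RNA of 24 samples was hybridised to Affymetrix Human Gene 2.1 ST arrays. The authors deposited log2 intensities per probe set; GCOS, RMA and Affymetrix Expression Console are named per the submitters' processing notes, and oligo and limma per the series design text. Versions, the genome build and which arrays were normalised together were not given in the sources used here. The titles of the HEK293 doxycycline arrays at 24 h misspell the line, and their cell line label was used.

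Of 352859 probe sets 257971 carried 1 symbol and were averaged per gene, with a median of 8 per gene. Genes whose highest group mean reached log2 2.83, the 40th percentile of group means, were tested (17329), and 7700 were left out. One fit of 8 group means with limma 3.58.1 (R 4.3.3, with the data.table package at version 1.17.8) gave all 12 comparisons, with eBayes and Benjamini-Hochberg adjustment. Across genes, Pearson's r was 0.974 to 0.98 within a group, 0.956 to 0.977 between groups of one line and 0.775 to 0.8 between lines; array medians ran from 3.92 to 4.05 and the median residual SD was 0.236.

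Members and lists were chosen with earlier results of these data known. All members may be named, and of each related list the 3 genes with the smallest p in a comparison. Alternatives covered the summary of probe sets, the filter, the scaling, the arrays in the fit, array weights, the prior variance, a replicate block and each array left out in turn.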

Additional observations from a re-analysis of the deposited data

Results flagged for a closer look

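The following differences between the lines were past the threshold of the limma test of the difference itself (adjusted p under 0.05), each given as BJ-hTERT minus HEK293 on the log2 scale. For doxycycline at 24 h they were MTHFD2 at -0.87, SLC7A1 at -0.736, GARS at -0.735, PSAT1 at -0.719 and IARS at -0.456. For doxycycline at 72 h they were CTH at 1.34, VLDLR at 1.24, PSAT1 at -0.708, SLC7A1 at -0.701 and PHGDH at -0.585. For the change from 24 to 72 h in mock cells they were CHAC1 at -1.96, SLC7A11 at -1.55, SESN2 at -1.17 and PSAT1 at -0.928. PSAT1 and SLC7A1 appear at both doxycycline times, and PSAT1 in all 3 sets; the mock arrays at a time are shared between these comparisons. GARS and IARS passed this test although neither was called within a line.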

How the results depend on the processing

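No member's called change turned its direction under any alternative. In gene-level results 7765 kept their side of the threshold, 252 calls were lost and 71 calls were gained. The 7765 include results that were not called in either fit, so they do not measure how well calls held. The PSAT1 call with doxycycline in BJ-hTERT at 72 h, for example, was lost in 11 of 17 alternatives. Calls of VLDLR and CTH at 72 h and of SLC7A1 at 24 h with doxycycline in BJ-hTERT held in all 17 alternatives. All-gene counts with doxycycline in BJ-hTERT moved as well. At 24 h they went from 1534 to 1165 with 12 arrays and 697 with 6. At 72 h they went from 1494 to 1137 and 551. Counts of called members moved as follows, and the cause was not tested. With doxycycline in BJ-hTERT at 24 h (10 called) the count was 6 with the 12 arrays of the line and 1 with the 6 arrays compared, where fewer arrays estimate the spread, and 6 to 9 without single arrays; it was 6 without doxycycline replicate 1 or 3 or mock replicate 1 or 2. At 72 h (8) it was 4 with probe set medians, 3 with 12 arrays and 2 with 6, and 4 to 6 without single arrays; it was 4 without doxycycline replicate 3 or mock replicate 1 and 5 without doxycycline replicate 2 or mock replicate 3. In HEK293 it stayed 0 at 24 h, and at 72 h was 1 with a trend in the prior variance and 1 with the replicate block; it stayed 0 to 0 without single arrays.

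Over time in BJ-hTERT mock cells (5) the count was 2 with probe set medians, 9 with brighter probe sets, 9 with the trend, 0 with 12 or 6 arrays and 2 to 5 without single arrays (2 without 24 h replicate 2, 3 without 72 h replicate 1 or 2). In HEK293 mock cells (1) it was 0 with medians, 4 with brighter probe sets, 0 with 12 or 6 arrays, 2 with quantile normalisation, 2 with the replicate block, 3 with the stricter filter and 4 with the trend, and 0 to 1 without single arrays: it was 1 only without 24 h replicate 1. For the difference between lines with doxycycline at 24 h (5) it was 2 with medians, 2 with no filter, 3 with quantile normalisation and 0 to 8 without single arrays (0 without BJ-hTERT doxycycline replicate 1, 8 without BJ-hTERT mock replicate 3, 1 to 3 without each of the others). At 72 h (5) it was 1 with medians, 3 with no filter and 1 to 4 without single arrays (1 without BJ-hTERT doxycycline replicate 3). For the change over time between lines (4) it was 1 with medians, 1 with no filter and 0 to 3 without single arrays (0 without BJ-hTERT replicate 2 at 24 h, BJ-hTERT replicate 1 or 2 at 72 h, or HEK293 replicate 1 at 72 h). The count between lines in mock cells (23) stayed within 21 to 24 without single arrays.

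Across all genes tested, deviations of same-numbered arrays correlated between -0.0521 and 0.086. This does not exclude pairing for single members. For SLC7A5 replicate 3 was the lowest array in every BJ-hTERT group (10.2 and 9.74 in mock, 9.76 and 10.24 with doxycycline). For PSAT1 replicate 3 was the highest with doxycycline at 24 h (8.31). With the replicate block the BJ-hTERT counts were 10 at 24 h and 7 at 72 h with doxycycline and 6 over time, and SLC7A5 was called in HEK293 at 72 h (adjusted p = 0.034). Low intensity limits DDIT3, and 3 arrays a group limit every call.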
